A study of Homo sapiens with 21 samples.

Results

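Genes whose mean level in OCI-AML5 cells was above DMSO at 24 h of UM171 and lower again at 72 h of UM171 were taken from the time course, and 85 of the 58174 genes in the files met the rule. The labels do not say whether UM171 was renewed or how much of it remained at 72 h. Mean TPM (a level scaled for transcript length and for the size of the library) over 3 libraries was used, with 0.1 TPM added before each ratio. A gene was a member if its mean at 24 h was at least 2.5 times that in DMSO and at least 3 TPM, if the mean at 72 h was at most 0.6 of that at 24 h, and if the mean at 6 h was below 0.7 of it. The levels in DMSO and at 6, 24 and 72 h were thus the values the members were chosen by, and they are given as a description, without a test. Of 581 genes past the 24 h limits, another 305 passed the 6 h limit and kept more than 0.6 of the 24 h level at 72 h.

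OCI-AML5 is a cell line grown from human acute myeloid leukemia, and UM171 is a small molecule that expands human hematopoietic stem cells in culture. By the labels, control cells received DMSO for 72 h or UM171 at 500 nM for 6, 24, 48 or 72 h. The sgEPCR cells, labelled as a clone expressing sgEPCR and as EPCR null, received DMSO or UM171 at 500 nM for 24 h. By the study's text, PROCR (the gene of EPCR, the endothelial protein C receptor) was targeted in them by CRISPR. Each of the 7 groups held 3 polyA RNA-seq libraries. The study's figure legends call the control cells sgAAVS1 and name a lower dose of UM171 for this comparison than the labels do, and its text speaks of independent sgEPCR clones. The labels tie no library to a guide RNA or to a named clone, nor do they say that libraries of a group came from separate cultures, so the p-values below measure the spread between these libraries. The vehicle of control cells is labelled 72 h and that of sgEPCR cells 24 h, so time in culture and UM171 cannot be told apart in the ratio of 24 h to DMSO in control cells.

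Genes under negative feedback can rise and recede under a constant stimulus. The aryl hydrocarbon receptor (AHR) is the textbook case in xenobiotic sensing: it binds a ligand, pairs with ARNT, turns on CYP1A1, which oxidizes ligands, and turns on TIPARP and AHRR, which restrain the receptor. NRF2, a factor released from KEAP1 by oxidants and electrophiles, drives antioxidant and carbonyl-reducing enzymes. Superoxide dismutases and peroxiredoxins convert superoxide and peroxides. A list of AHR pathway genes, one of NRF2 targets and one of peroxide and glutathione defense were followed through the members.

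The promoters of 3 members are shown because 2 of them, CYP1A1 and TIPARP, are the AHR targets of the set, and the third, GCSH, is 1 of 4 members whose window holds both of the motifs searched for AHR and NRF2, the others being AIFM2, KLHL13 and RPL22L1. Sequences are from RefSeq (GRCh38.p14), 5′ to 3′ on the strand of the gene, before the transcript start and outside annotated exons. Capitals mark the xenobiotic response core GCGTG, on either strand, in the first 2, and the antioxidant response core TGACNNNGC, on either strand, in the third.
CYP1A1 (chr15:74725537-74725778, minus strand): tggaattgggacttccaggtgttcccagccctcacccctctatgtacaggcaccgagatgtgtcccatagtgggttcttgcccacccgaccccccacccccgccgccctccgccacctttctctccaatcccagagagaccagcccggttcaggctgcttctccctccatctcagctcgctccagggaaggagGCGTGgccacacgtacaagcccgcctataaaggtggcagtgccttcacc
TIPARP (chr3:156674447-156674589, plus strand): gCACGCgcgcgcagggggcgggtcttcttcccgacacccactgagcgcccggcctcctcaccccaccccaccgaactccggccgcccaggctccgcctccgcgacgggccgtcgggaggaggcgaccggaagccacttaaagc
GCSH (chr16:81096396-81096645, minus strand): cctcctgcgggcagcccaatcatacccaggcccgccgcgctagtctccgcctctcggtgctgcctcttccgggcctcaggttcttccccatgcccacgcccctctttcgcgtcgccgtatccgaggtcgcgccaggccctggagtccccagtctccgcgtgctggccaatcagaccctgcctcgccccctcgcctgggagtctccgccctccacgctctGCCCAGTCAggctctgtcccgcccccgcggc
The xenobiotic core began 57 bases before the start of CYP1A1 and 142 bases before the TIPARP start shown, where another lay at 208 bases in an exon of a longer transcript. Windows before other TIPARP starts held no xenobiotic core. The antioxidant core began 31 bases before the start of GCSH, whose window also held the xenobiotic core at 39, 94 and 156 bases. The match at 39 bases ends before the antioxidant core, so these motifs do not overlap there. Among the 52 members matched to the promoter table, 20 held GCGTG within 250 bases before a start (38.5%, against 36.2% of the 27305 genes of the table) and 12 held TGACNNNGC (23.1% against 13.2%). The interferon-stimulated core GAAANNGAA was in 8 (15.4% against 8.41%), the PU.1 motif GAGGAAGT in 1, CCL23, and neither GGGANTTTC (NF-kB) nor AATCACNGC (GFI1) in any window, where 1.37% and 1.07% of genes held them. Members had 1.6 windows per gene and all genes 1.29, so shares per gene are not on equal length. Per window, GCGTG was in 25.3% of 83 member windows and 32.2% of all 35116, and TGACNNNGC in 14.5% and 10.9%. No window of PIR held either core, and these are matches of letters, with no measurement of binding.

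Total counts lay between 24.3 and 51.5 M per library (median 33.9). Mitochondrial genes took 35.9% of counts in sgEPCR DMSO library 1 and 32.2% in sgEPCR UM171 library 2, against 7.73% to 13.5% in the other 19. These 2 libraries stand apart, and in them the TPM of most other genes is lower: 61 of 70 members tested were lowest of sgEPCR DMSO in library 1 and 64 lowest of sgEPCR UM171 in library 2, as were 90.9% and 90.1% of all genes tested. PROCR was 3.68 ± 0.534 TPM in DMSO and 48.5 ± 0.0115 TPM at 24 h in control cells, and 3.59 ± 1.15 and 7.19 ± 2.58 TPM in sgEPCR DMSO and UM171 (SD, n = 3), so its transcript was still read in targeted cells, which says nothing of the protein. Of 7 acute myeloid leukemia markers, 6 were at 3 TPM or more at 24 h in control cells. The leukocyte and myeloid genes PTPRC, CD33 and SPI1 were at 162, 178 and 417 TPM in DMSO. They held most of the list's sum of 778 to 801 TPM there, and CD34, CSF2RA, CSF2RB and MPO the small rest. The 7 epithelial and fibroblast markers summed to 0.02 to 4.28 TPM over all 21 libraries. These are bulk samples, in which fewer cells of a type and less RNA per cell cannot be told apart.

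The 85 members held 56 protein-coding genes, 11 lncRNAs, 5 small nucleolar or Cajal body RNAs, 4 microRNA genes, 5 pseudogenes and 4 of other kinds. The counts behind the levels divided them. In 71 members each 24 h library held at least 10 counts, and in 68 of these every 24 h library lay above every DMSO, 6 h and 72 h library. The exceptions were FAM88B, ENSG00000267645 and ENSG00000276077. In the other 14 members at least 1 of the 24 h libraries held fewer than 10 counts, and in none of them were the 24 h libraries apart from the rest.

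The 8 members with the highest ratio of 24 h to DMSO, between 43.2 and 165, all belonged to that second kind, with at most 1.99 counts in any 24 h library. Each rested on 1 or 2 of the 24 h libraries. The lncRNA ENSG00000273639 was at 63.97 TPM in 1 of the 24 h libraries and listed at 0 in the other 24 h libraries, yet at 37.6 TPM in 1 library at 6 h. Y_RNA (ENSG00000200121) was at 43 TPM in 1 of the 24 h libraries and listed at 0 in all others of the series. SNORD116-22 was at 23.66 TPM in 1 library at 24 h and at 23.7 and 1.8 TPM in 2 libraries at 48 h. Apart from ENSG00000273639 these are short structured RNAs that polyA selection is not meant to capture, with effective lengths of 0.37 to 7.43 bases, over which 1 count becomes many TPM. MIR590 was at 17.4 TPM, MIR616 at 17 TPM and SNORD88B at 13.44 TPM in 1 library at 24 h each and listed at 0 in every other library. RNU6-1240P was at 12.69 TPM in 1 library at 24 h and 2.1 TPM in 1 library of sgEPCR UM171. SNORD13E was at 4.33 and 8.32 TPM in 2 libraries at 24 h and 13.48 TPM in 1 library of sgEPCR DMSO. With 0 to 3 counts a library, a difference between groups was not detectable for these 8, and the levels of the 14 thinly counted members are not described further.

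**Figure D1:**
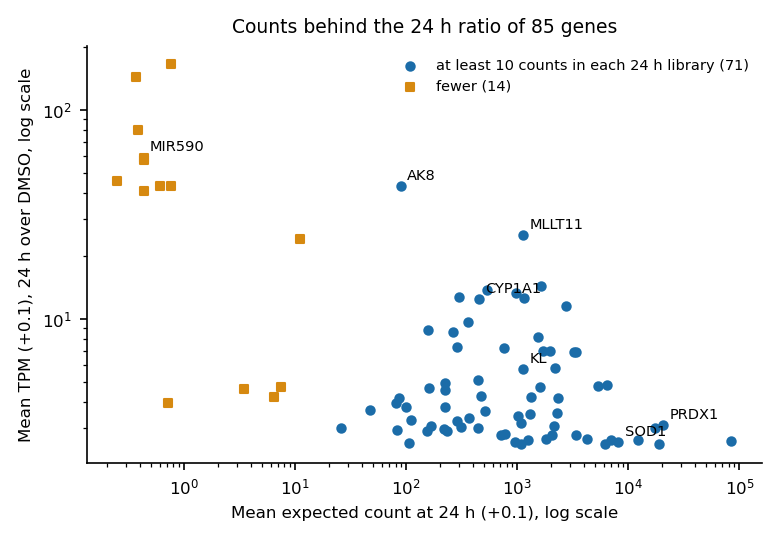
Ratio of mean TPM (0.1 added) at 24 h of UM171 to DMSO against the mean expected count at 24 h for the 85 members, both on log scales. The 14 members with fewer than 10 counts in a 24 h library (squares) hold the 8 highest ratios, and AK8 has the highest ratio (43.1) of the 71 others (circles).

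Among the 71 well-counted members the ratio at 24 h ran from 2.51 to 43.1 (median 3.65) and the mean level from 3.07 to 1835 TPM (median 15.6). The 8 highest ratios here, a list made after the values were seen, were AK8, an adenylate kinase (43.1), MLLT11 (25.1), DNAJC6, the clathrin-uncoating factor auxilin (14.4), HS3ST1, a heparan sulfate sulfotransferase (13.8), GCNT2, a glycan-branching enzyme (13.2), POPDC3 (12.7), BCYRN1 (12.5) and CYP1A1 (12.5). MLLT11 was at 0.34, 0.32 and 0.29 TPM in the DMSO libraries, 0.84, 0.75 and 0.79 TPM at 6 h, 10.6, 10.4 and 9.99 TPM at 24 h, 9.64, 10.2 and 8.95 TPM at 48 h and 2.36, 2.29 and 2.39 TPM at 72 h. AK8 was at 0.12, 0.02 and 0.13 TPM in the DMSO libraries, 0.52, 0.28 and 0.18 TPM at 6 h, 7.3, 8.95 and 8.04 TPM at 24 h, 4.59, 4.1 and 3.12 TPM at 48 h and 1.12, 1.21 and 1.37 TPM at 72 h. For both genes every 24 h library was above every library of the other 4 groups except, for MLLT11, 1 library at 48 h.

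At 6 h, 25 of the 71 were below 1.5 times DMSO, 13 were at 1.5 to 2 times and 33 at 2 times or more. The members lowest at 6 h held the abundant genes of the set, with a median of 56.3 TPM at 24 h against 6.22 and 9.58 TPM in the other classes. They had smaller ratios at 24 h (medians 2.79, 3.54 and 5.8), and at 72 h they were near DMSO (median ratio 1.19), where the early genes were still at 3.1 times. The rule limits the 6 h and 72 h levels as shares of the 24 h level, so these differences between classes are partly built in. Over the 71, 29 were at 1.5 times DMSO or lower at 72 h, 15 between 1.5 and 2 times and 27 at 2 times or more. The limits of 1.5 and 2 were set after the values were seen.

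The 48 h level, which the rule did not use, was below 0.5 of the 24 h level in 12 members, 0.5 to 0.8 in 36 and 0.8 or more in 23 (median 0.731). Each share is divided by the 24 h mean that the members were chosen by, so shares below 1 are partly built in. CYP1A1 had the lowest share, 0.12, followed by ENSG00000258875 (0.157) and ENSG00000267645 (0.252). The label of a 24 h peak did not hold for 3 members, whose mean was higher at 48 h: ITSN1 (share 1.05), GCNT2 (1.08) and BCYRN1 (1.15). The 305 genes without the fall had a median share of 1.17 at 48 h, where they were at 4.77 times DMSO (median). They were divided from the members by the 72 h level, so that contrast is partly built in as well.

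**Figure D2:**
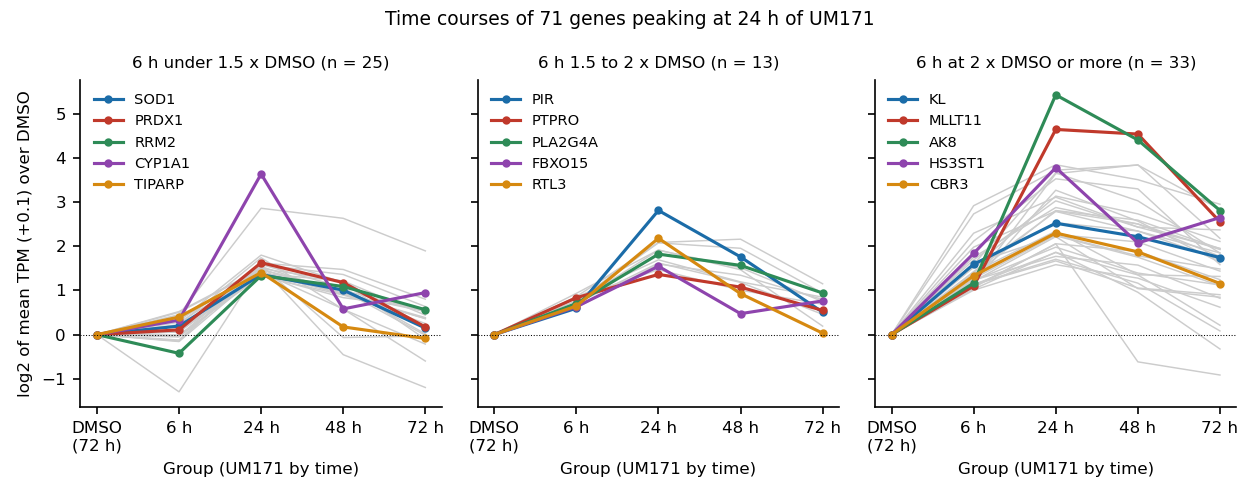
Mean TPM (0.1 added) over that in DMSO, on a log2 scale, for the 71 members with at least 10 counts in each 24 h library, by group, in 3 panels for genes below 1.5 times (25), at 1.5 to 2 times (13) and at 2 times or more (33) DMSO at 6 h. Grey lines are single genes and 5 named genes a panel are colored. CYP1A1 and TIPARP drop toward DMSO by 48 h, while MLLT11 stays near its 24 h level until 72 h.

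Of the 10 AHR pathway genes 2 were members, CYP1A1 (chr15:74719542-74725536, minus strand) and TIPARP (chr3:156673235-156706770, plus strand), positions here and below being of the GENCODE annotation on GRCh38. CYP1A1, the ligand-oxidizing cytochrome P450, was at 0.39, 0.61 and 0.53 TPM in the DMSO libraries, 0.78, 0.72 and 0.5 TPM at 6 h, 8.58, 7.53 and 6.38 TPM at 24 h, 1.13, 0.63 and 0.68 TPM at 48 h and 1.08, 1.19 and 0.97 TPM at 72 h. The 24 h libraries stood far above the other 12, among which those at 6 h overlapped DMSO and those at 48 and 72 h lay just above it. TIPARP, the ADP-ribosyltransferase that restrains AHR, was at 16.8, 16.4 and 18.6 TPM in the DMSO libraries, 22.3, 22.4 and 23.5 TPM at 6 h, 43.5, 45.9 and 48.2 TPM at 24 h, 19.8, 22.4 and 16.3 TPM at 48 h and 16.4, 14.8 and 17.5 TPM at 72 h. Its 24 h libraries were above all others, those at 6 h lay between them and DMSO, and those at 48 and 72 h overlapped DMSO. The receptor gene AHR passed the 24 h limits at 73.7 ± 6.09 TPM against 14.8 ± 1.14 in DMSO (SD, n = 3), but at 72 h kept 0.651 of that level and so was no member. AHRR, the repressor of the receptor, and CYP1B1, its other cytochrome target, named after their values were seen, were at 37.8 and 37.5 TPM in DMSO, 36.1 and 70.7 at 24 h and 16 and 21.6 at 72 h.

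Of 28 NRF2 target genes 3 were members, PRDX1, PIR and CBR3. Pirin (PIR, chrX:15384799-15493564, minus strand), an iron-binding nuclear protein, was at 6.55, 7.71 and 7.52 TPM in the DMSO libraries, 11.4, 11.2 and 10.5 TPM at 6 h, 52.7, 52.6 and 49.5 TPM at 24 h, 26, 25.9 and 22.6 TPM at 48 h and 9.57, 11.1 and 10.5 TPM at 72 h. Each step up to 24 h and down to 72 h was free of overlap between neighboring groups, and 72 h ended above DMSO. CBR3 (chr21:36135079-36146562, plus strand), a carbonyl reductase, was at 1.45, 1.7 and 1.22 TPM in the DMSO libraries, 3.03, 3.95 and 4.48 TPM at 6 h, 7.63, 7.82 and 7.27 TPM at 24 h, 5.29, 6.24 and 5.29 TPM at 48 h and 3.44, 3.38 and 3.3 TPM at 72 h. It was already above DMSO at 6 h, and its 72 h libraries overlapped those of 6 h. A further 3 NRF2 targets passed the 24 h limits without the fall: AKR1C3 (3.1 ± 0.754 TPM at 24 h), ME1 (31.7 ± 0.858) and SLC7A11 (14.2 ± 0.45), which kept 1.8, 0.699 and 1.08 times the 24 h level at 72 h. The median ratio of 24 h to DMSO over the 25 NRF2 targets above 3 TPM was 0.986, so the list as a whole was near its DMSO level at 24 h.

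Peroxide and glutathione defense held 4 members among its 41 genes in the files, SOD1, PRDX1, AIFM2 and GCSH. SOD1 (chr21:31659666-31668931, plus strand), the cytosolic superoxide dismutase, was at 122, 138 and 137 TPM in the DMSO libraries, 149, 154 and 149.98 TPM at 6 h, 349.9, 341 and 327 TPM at 24 h, 256, 276 and 266 TPM at 48 h and 143, 146 and 151 TPM at 72 h. Its 24 h libraries were the highest, those at 48 h came next, and the 6 h and 72 h libraries lay just above DMSO with no overlap. PRDX1 (chr1:45510914-45542732, minus strand), which reduces hydrogen peroxide and belongs to both lists, was at 265, 278 and 287 TPM in the DMSO libraries, 286, 306 and 303 TPM at 6 h, 864, 869 and 838 TPM at 24 h, 609.5, 654 and 617 TPM at 48 h and 277, 336 and 323 TPM at 72 h. Here the 72 h libraries overlapped DMSO, and those at 24 h exceeded every other library. AIFM2 (chr10:70098223-70132934, minus strand), a reductase of coenzyme Q that limits lipid peroxidation, was at 4.08, 4.59 and 4.59 TPM in the DMSO libraries, 5.24, 5.73 and 5.51 TPM at 6 h, 15.8, 15.8 and 15.3 TPM at 24 h, 11.3, 11.1 and 7.89 TPM at 48 h and 3.7, 4.12 and 4.5 TPM at 72 h. By 72 h it overlapped DMSO again. GCSH (chr16:81081945-81096395, minus strand), which is no peroxide enzyme but the H protein of the mitochondrial glycine cleavage system, was at 18.2, 19.1 and 18.4 TPM in the DMSO libraries, 20.2, 20.5 and 18.8 TPM at 6 h, 45.3, 47.9 and 47.7 TPM at 24 h, 35.5, 38.7 and 36.5 TPM at 48 h and 20.3, 21.4 and 20.2 TPM at 72 h. GCSH and its processed pseudogene GCSHP5, also a member (ratio 2.91), can divide reads, so their separate levels are uncertain. The 3 other genes of this list at 24 h, GLRX, GSTM4 and MGST2, kept 1.15, 0.912 and 0.856 times that level at 72 h.

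**Figure D3:**
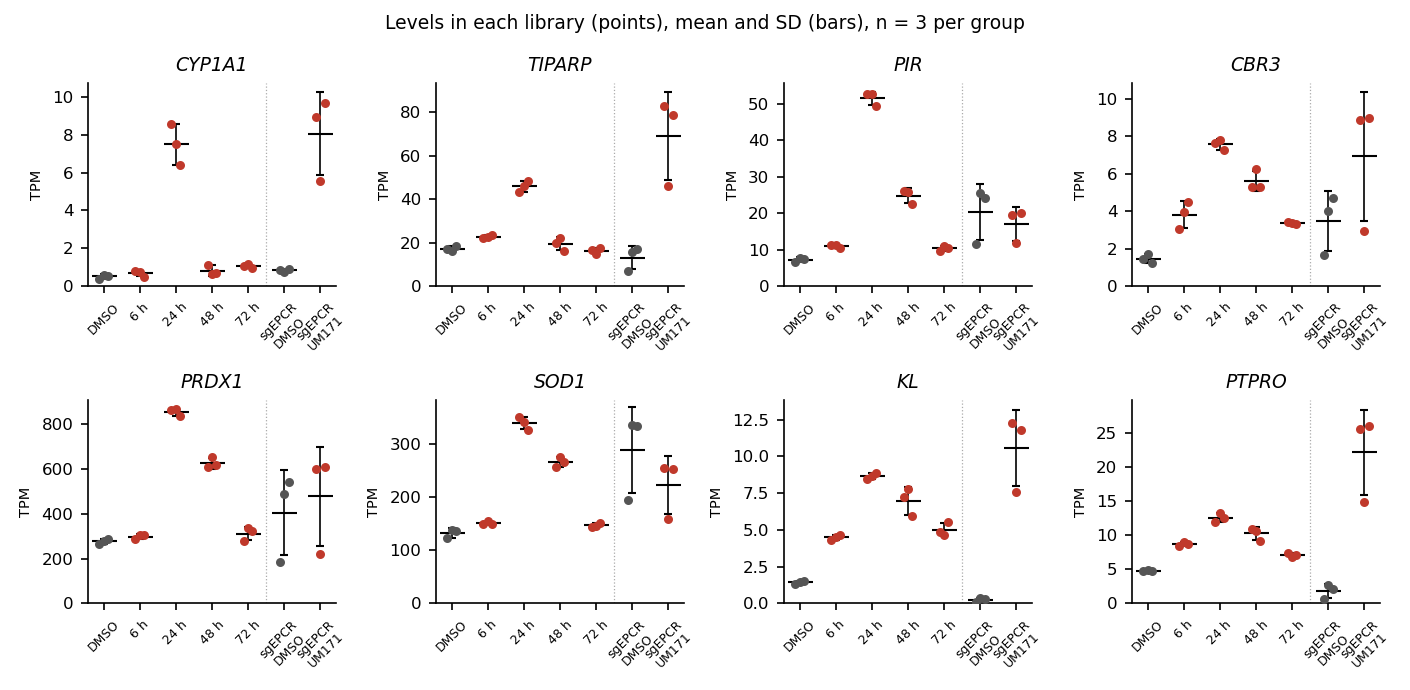
TPM in each of the 21 libraries (points) for 8 members, with the mean and SD (bars, n = 3), for control cells in DMSO and at 4 times of UM171 and, right of the dotted line, sgEPCR cells in DMSO and UM171 at 24 h. In control cells each gene is highest at 24 h, and in sgEPCR cells CYP1A1, TIPARP, KL and PTPRO are separated between DMSO and UM171 while the other 4 overlap.

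The most abundant members were RNA-binding and ribosomal genes along with PRDX1. HNRNPA2B1 (chr7:26171151-26201529, minus strand), a nuclear RNA-binding protein, was at 668, 739 and 703 TPM in the DMSO libraries, 726, 741 and 731 TPM at 6 h, 1973, 1831 and 1702 TPM at 24 h, 1578, 1751 and 1573 TPM at 48 h and 866, 1024 and 975 TPM at 72 h. HNRNPL (chr19:38836370-38852347, minus strand), a splicing regulator, was at 156, 152 and 158 TPM in the DMSO libraries, 146, 142 and 141 TPM at 6 h, 452, 468 and 480.03 TPM at 24 h, 413, 408 and 378 TPM at 48 h and 235, 235 and 255 TPM at 72 h. At 6 h HNRNPA2B1 overlapped DMSO and HNRNPL was slightly below it, and at 72 h both were above DMSO without overlap. The other 29 of 31 hnRNP and SR splicing genes were no members, and the median ratio of 24 h to DMSO over the 30 of them above 3 TPM was 1.06. RPL22L1 (chr3:170864875-170870208, minus strand), a paralog of ribosomal protein L22, was at 185, 225 and 208 TPM in the DMSO libraries, 184, 237 and 231 TPM at 6 h, 570.05, 553 and 500.3 TPM at 24 h, 382, 482 and 319 TPM at 48 h and 224, 237 and 274 TPM at 72 h. BCYRN1 (chr2:47335315-47335514, plus strand), an Alu-derived noncoding RNA whose reads can be shared with other Alu copies, was at 17.8, 35.8 and 43.6 TPM in the DMSO libraries, 81.7, 77.2 and 63.2 TPM at 6 h, 393, 412 and 414 TPM at 24 h, 468, 383 and 549.7 TPM at 48 h and 114, 169.6 and 157 TPM at 72 h. RPL22L1 overlapped DMSO at 6 and 72 h, whereas BCYRN1 stayed above DMSO throughout.

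Proteasome and replication genes gave 3 members. PSMB2, a core subunit of the proteasome, was at 81 ± 4.52 TPM in DMSO, 213 ± 11.6 at 24 h and 80.2 ± 0.946 at 72 h (SD, n = 3). It was the only member among 40 proteasome genes, whose median ratio of 24 h to DMSO was 1.72 and whose summed level went from 5003 to 5232 TPM in DMSO to 8353 to 8672 at 24 h and 4297 to 4620.1 at 72 h. RRM2, the small subunit of ribonucleotide reductase, was at 120.01, 132 and 129 TPM in the DMSO libraries, 89.5, 100.3 and 94.4 TPM at 6 h, 315, 324 and 324 TPM at 24 h, 288, 299 and 225 TPM at 48 h and 183, 204 and 176 TPM at 72 h. RRM2 was lower at 6 h than in DMSO without overlap, and higher at every later time. ASF1A, a histone chaperone, was at 20.2 ± 1.03 TPM in DMSO, 56.3 ± 1.67 at 24 h and 29.2 ± 2.67 at 72 h. The 31 S phase genes, of which these 2 were members, summed to 2283 to 2384 TPM in DMSO, 3240.2 to 3352 at 24 h and 1649 to 1770.5 at 72 h, and 20 mitosis genes, with no member, to 1566 to 1673, 2194 to 2235 and 1311 to 1375 TPM. Both lists were thus higher at 24 h and lower at 72 h than in DMSO, and the part of cell cycling in the members' levels was not tested.

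Lipid mediator, platelet and stem cell lists gave 4 members. PLA2G4A, the cytosolic phospholipase that releases arachidonic acid, was at 8.3, 8.97 and 8.55 TPM in the DMSO libraries, 13.8, 13.6 and 14.8 TPM at 6 h, 32.6, 29.8 and 29.8 TPM at 24 h, 26.1, 30.1 and 21 TPM at 48 h and 14.9, 17.8 and 17.2 TPM at 72 h, and it was the only member of 18 eicosanoid genes. Of the others, PTGS2 and TBXAS1 passed the 24 h limits and kept 4.03 and 0.635 times that level at 72 h. MMRN1, a platelet granule protein, was at 0.557 ± 0.0896 TPM in DMSO, 3.24 ± 0.319 at 24 h and 1.54 ± 0.0874 at 72 h, and GNG11, a G protein gamma subunit, at 4 ± 0.331, 19.3 ± 1.85 and 8.73 ± 0.791 TPM. They were 2 of 14 megakaryocyte and platelet markers, whose sum was 8.49 to 9.23 TPM in DMSO, 27.2 to 31.7 at 24 h and 31.5 to 37.6 at 72 h. That sum did not fall by 72 h as MMRN1 and GNG11 did. Of the 14, 5 stayed below 0.1 TPM in every library, GP9, GP1BA, PF4 and SELP among them, and 3 were at 3 TPM or more at 24 h in control cells. LIN28B, which blocks maturation of let-7 microRNAs, was at 8.75 ± 0.413 TPM in DMSO, 42.5 ± 2.96 at 24 h and 23.9 ± 1.66 at 72 h and was the only member of 11 stem and progenitor genes. None of 48 interferon-stimulated genes was a member, although IFI6 (18.8 ± 1.1 TPM at 24 h), HERC5 (20.8 ± 1.45), BST2 (146 ± 3.46) and SP140 (3.62 ± 0.193) passed the 24 h limits. The lists of monocyte (14), mast cell, basophil and eosinophil (13), erythroid (17), T and B cell (9), epithelial and fibroblast (7) and acute myeloid leukemia (7) markers held no member either. The mast cell list, 1 of whose genes stayed below 0.1 TPM everywhere, summed to 55.6 to 58.9 TPM in DMSO, 127 to 176 at 24 h and 603 to 664 at 72 h, and was thus higher still at 72 h.

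There were 4 pairs of members within 250 kb of each other. LIN28B and POPDC3 (ratio 12.7) are 74.57 kb apart on chromosome 6, on opposite strands. FILIP1L and NIT2 are 220.2 kb apart on chromosome 3, MCUB and EGF 224.2 kb on chromosome 4, and B4GALNT1 and the thinly counted MIR616 104.1 kb on chromosome 12. Members had a median GC content of 47.8% and a mean transcript length of 1500.3 bases (median over the 71), and all genes tested in sgEPCR cells 49.1% and 1649.7 bases.

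The rule drew lines through a continuous range. NCAPG had a ratio of 24 h to DMSO of 2.51 and ATP5MC1, just outside, 2.499. GLIDR was a member at 3.07 TPM at 24 h and TRGV3 was not at 2.98 TPM. At 72 h SLC7A7 kept 0.599 and UGT3A2 0.6004 of the 24 h level. At 6 h PTPRO was at 0.693 and RTN1 at 0.715 of it.

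The 6 sgEPCR libraries, which the rule did not use, asked which of these genes respond to UM171 at 24 h in cells with PROCR targeted. Of the 85 members 70 passed the filter on low counts, and 28 of them were raised and 10 lowered by UM171 at an adjusted p under 0.05 (edgeR, Benjamini-Hochberg over 14954 genes). Over all genes tested, 20.8% were raised and 16.2% lowered, against 40.0% raised and 14.3% lowered of the 70 members, so the share lowered is near the background and is no result about the members. At an adjusted p under 0.0001 and over 2-fold, 1 member was raised, KL, where 0.381% of all genes were raised and 0.0201% lowered. Their median log2 fold change was 0.57, against -0.01 over all genes and 1.35 over 303 tested genes without the fall, of which 201 were raised and 18 lowered. The control response of all these genes was fixed by the rule, so their share called in control cells is not compared.

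Calls in sgEPCR cells are given by the timing in control cells, beside 20.8% raised and 16.2% lowered of all genes tested. Of 33 members already at 2 times DMSO at 6 h, 20 were raised and 3 lowered (median log2 fold change 1.27). Of 13 at 1.5 to 2 times, 5 were raised and 2 lowered (0.72). Of 24 tested members below 1.5 times at 6 h 3 were raised, CYP1A1, TIPARP and NAB2, a repressor of EGR factors, and 5 were lowered (-0.28). This last class holds SOD1, PRDX1, AIFM2, GCSH, RRM2, PSMB2 and both hnRNP genes. In the order given, 60.6%, 38.5% and 12.5% of the classes were raised and 9.09%, 15.4% and 20.8% lowered. The shares lowered lie about the 16.2% of all genes and are no result about the classes. With a limit of 1.2 or 1.3 in place of 1.5, 0 of 15 or 1 of 19 tested members were raised and 5 lowered (edgeR, 1 and 2 raised at an unadjusted p under 0.05). The 3 raised members of the class below 1.5 times were at 1.26 (CYP1A1), 1.32 (TIPARP) and 1.37 (NAB2) times DMSO at 6 h. Without the 2 mitochondria-rich libraries 7 of 25 were raised and 14 lowered in that class, 8 and 3 of 13 in the next and 24 and 4 of 33 in the class at 2 times or more, where 38.2% of all genes were raised and 38.0% lowered. The difference between these 3 groups was not tested.

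**Figure D4:**
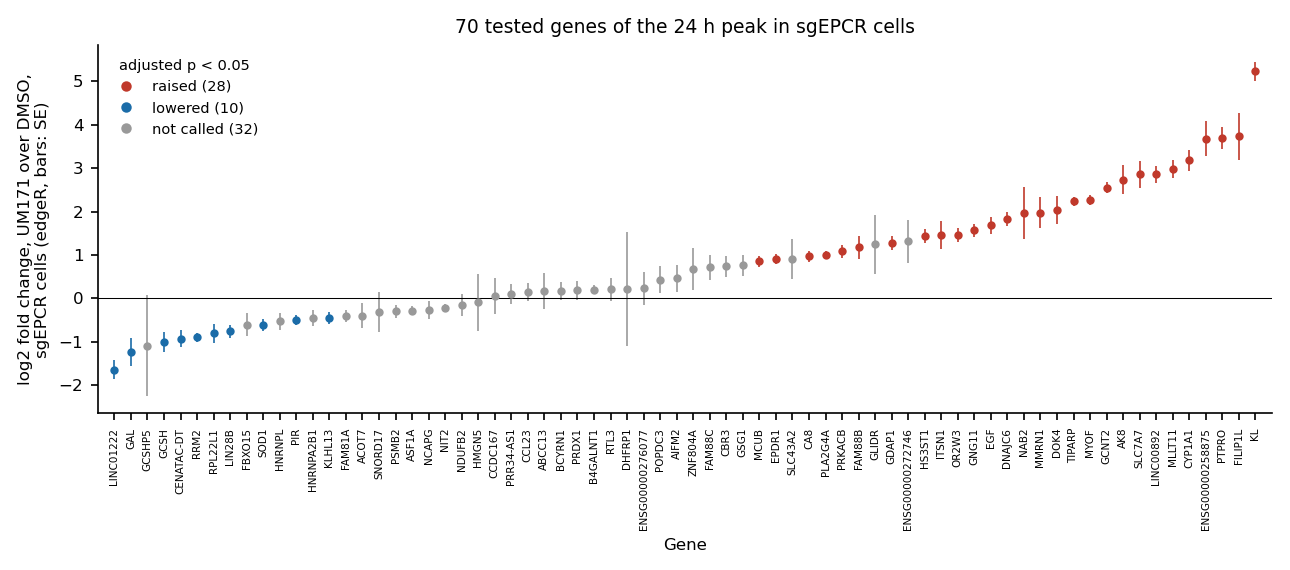
log2 fold change of UM171 over DMSO in sgEPCR cells (edgeR, bars are the standard error, 3 against 3 libraries) for the 70 members tested, in rank order. At an adjusted p under 0.05, 28 were raised (red), 10 lowered (blue) and 32 not called (grey), with KL highest at 5.23 and LINC01222 lowest at -1.65.

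KL had the largest rise among the members tested, followed by FILIP1L, PTPRO, ENSG00000258875 and CYP1A1. KL (chr13:33016423-33066143, plus strand), the gene of klotho, a coreceptor of FGF23, was at 0.11, 0.38 and 0.26 TPM in sgEPCR DMSO and 12.3, 7.56 and 11.8 TPM in sgEPCR UM171 (log2 fold change 5.23, standard error 0.21, adjusted p = 7.89e-05). Its vehicle level was below that of control cells (1.33, 1.45 and 1.49 TPM), and its control 24 h libraries were at 8.49, 8.63 and 8.85 TPM. FILIP1L (chr3:99828811-100114513, minus strand) was at 5.22, 3.18 and 3.59 TPM in sgEPCR DMSO and 63.1, 77.4 and 62.3 TPM in sgEPCR UM171 (log2 fold change 3.73, standard error 0.54, adjusted p = 0.00319), where the control 24 h libraries were at 26.6, 23.7 and 26.6 TPM against 4.17, 4.7 and 4.15 in DMSO. PTPRO (chr12:15322257-15602175, plus strand), a receptor-type tyrosine phosphatase, was at 0.67, 2.67 and 2.09 TPM in sgEPCR DMSO and 25.6, 14.9 and 25.9 TPM in sgEPCR UM171 (log2 fold change 3.70, standard error 0.24, adjusted p = 0.000274). In control cells PTPRO was at 11.9, 13.2 and 12.5 TPM at 24 h against 4.7, 4.94 and 4.78 in DMSO. The lncRNA ENSG00000258875 (chr14:91242759-91252211, plus strand) was at 0.28, 0.63 and 0.14 TPM in sgEPCR DMSO and 4.98, 3.85 and 6.14 TPM in sgEPCR UM171 (log2 fold change 3.68, standard error 0.41, adjusted p = 0.0013), and at 3.48, 2.38 and 3.42 TPM at 24 h in control cells against 0.74, 0.62 and 0.64 in DMSO. For each of these 4 genes every sgEPCR UM171 library was above every sgEPCR DMSO library, and the call held at an adjusted p under 0.05 in all 19 alternative fits for KL, FILIP1L and PTPRO. It held in 18 for ENSG00000258875, which the filter of at least 10 counts in every library removed.

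The AHR targets were raised with them. CYP1A1 was at 0.87, 0.75 and 0.88 TPM in sgEPCR DMSO and 8.95, 5.57 and 9.67 TPM in sgEPCR UM171 (log2 fold change 3.18, standard error 0.25, adjusted p = 0.000455), and TIPARP at 6.83, 15.6 and 17 TPM in sgEPCR DMSO and 82.8, 46 and 78.7 TPM in sgEPCR UM171 (log2 fold change 2.24, standard error 0.11, adjusted p = 0.000125), with no overlap in either case. The control 24 h levels of CYP1A1 (8.58, 7.53 and 6.38 TPM) lay in the same range, and those of TIPARP (43.5, 45.9 and 48.2 TPM) below 2 of the 3 sgEPCR libraries. Of the 7 AHR pathway genes tested 6 were raised, AHR itself among them (log2 fold change 0.98, standard error 0.31, adjusted p = 0.0483), where 20.8% of all genes were raised. The call on AHR lay close to the limit and was not followed through the alternative fits.

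Of the NRF2 and peroxide members PIR, SOD1 and GCSH were lowered and PRDX1, CBR3 and AIFM2 not called. PIR was at 11.5, 25.4 and 24.1 TPM in sgEPCR DMSO and 19.4, 11.7 and 20.2 TPM in sgEPCR UM171, and the groups overlapped in TPM (log2 fold change -0.50, standard error 0.12, adjusted p = 0.0189). SOD1 was at 194, 336 and 334 TPM in sgEPCR DMSO and 255, 159 and 253 TPM in sgEPCR UM171, again with overlap (log2 fold change -0.61, standard error 0.14, adjusted p = 0.0186). GCSH was at 31.9, 51 and 50.2 TPM in sgEPCR DMSO and 29.2, 24 and 25 TPM in sgEPCR UM171 without overlap (log2 fold change -0.998, standard error 0.23, adjusted p = 0.0179). PRDX1 was at 186, 490.1 and 542 TPM in sgEPCR DMSO and 602, 223 and 611 TPM in sgEPCR UM171 and was not called (log2 fold change 0.18, standard error 0.22, adjusted p = 0.556). Its interval of ± 2 standard errors spans both directions, which does not show that it was unchanged. CBR3 was at 1.66, 4.04 and 4.71 TPM in sgEPCR DMSO and 8.9, 2.95 and 8.98 TPM in sgEPCR UM171 (log2 fold change 0.74, standard error 0.24, adjusted p = 0.0564), and AIFM2 at 3.1, 10.4 and 9.33 TPM in sgEPCR DMSO and 16.5, 4.26 and 16.4 TPM in sgEPCR UM171 (log2 fold change 0.46, standard error 0.31, adjusted p = 0.295), both not called. In control cells PIR had been at 52.7, 52.6 and 49.5 TPM at 24 h, above every sgEPCR library of either treatment. Over the whole lists, 8 NRF2 targets of 27 tested were raised and 4 lowered, and 2 peroxide and glutathione genes of 37 raised and 7 lowered. Over all genes 20.8% were raised and 16.2% lowered, so the shares lowered in both lists are near the background. Without the 2 libraries rich in mitochondrial counts, the log2 fold change was 0.19 for PRDX1, 0.84 for CBR3 and 0.58 for AIFM2, and all 3 were then raised (adjusted p = 7.8e-05, 4.11e-05 and 1.47e-06, edgeR on 2 against 2), while SOD1 (-0.58), PIR (-0.49) and GCSH (-1.11) stayed lowered. In that fit 38.2% of all genes were raised and 38.0% lowered, so a call there sets a gene little apart. Leaving out sgEPCR UM171 library 2 alone also raised CBR3 (adjusted p = 0.0111) and AIFM2 (0.0276). The calls on SOD1 and GCSH were lost without sgEPCR UM171 library 1 (adjusted p = 0.0781 and 0.0696) or library 3 (0.076 and 0.0616), and that on PIR without either of these (0.0707 and 0.0594) or without sgEPCR DMSO library 2 (0.0795) or 3 (0.0764).

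Among the called members, the largest falls were in LINC01222, GAL, GCSH, CENATAC-DT and RRM2. LINC01222 (chr1:199006040-199021037, minus strand), a lncRNA, was at 2.12, 3.33 and 3.47 TPM in sgEPCR DMSO and 1.3, 0.83 and 1.26 TPM in sgEPCR UM171 (log2 fold change -1.65, standard error 0.22, adjusted p = 0.00236). GAL (chr11:68683779-68691175, plus strand), the neuropeptide galanin, was at 26.8, 107 and 95.4 TPM in sgEPCR DMSO and 50.4, 14.4 and 47.4 TPM in sgEPCR UM171 (log2 fold change -1.24, standard error 0.31, adjusted p = 0.0247). CENATAC-DT (chr11:118994824-118998004, minus strand), a divergent lncRNA, was at 2.21, 3.01 and 3.74 TPM in sgEPCR DMSO and 1.58, 1.08 and 1.9 TPM in sgEPCR UM171 (log2 fold change -0.93, standard error 0.19, adjusted p = 0.0115). LINC01222 and CENATAC-DT had no overlap, and GAL had. In control cells they were at 6.49, 6.23 and 5.94 TPM, 89.3, 91.5 and 96 TPM and 3.12, 4.16 and 3.95 TPM at 24 h. RRM2 was at 112, 376 and 355 TPM in sgEPCR DMSO and 211, 84.8 and 213 TPM in sgEPCR UM171 (log2 fold change -0.90, standard error 0.10, adjusted p = 0.00135), and with it 23 of 31 S phase genes and 16 of 20 mitosis genes were lowered, against a background of 16.2% lowered. The other lowered members were RPL22L1 (-0.81), LIN28B (-0.76), SOD1, PIR and KLHL13 (-0.45). RPL22L1 was at 268, 489 and 475 TPM in sgEPCR DMSO and 302, 211 and 299 TPM in sgEPCR UM171, with overlap. The count of lowered members rested on single libraries. It was 22 without the 2 mitochondria-rich libraries, when 38.0% of all genes were lowered, and 4, 3, 6 and 5 without sgEPCR UM171 library 1 or 3 or sgEPCR DMSO library 2 or 3. Calls on GAL and CENATAC-DT were lost without sgEPCR UM171 library 3 (adjusted p = 0.0594 and 0.0588) or sgEPCR DMSO library 3 (0.0814 and 0.0584), that on GAL also without sgEPCR DMSO library 2 (0.0784) and that on CENATAC-DT without sgEPCR UM171 library 1 (0.0642). With limma on log2(TPM + 1) the calls on LINC01222 and RRM2 were lost (adjusted p = 0.0851 and 0.64), and total-count scaling also ended that on RRM2 (0.0732).

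The abundant RNA-binding members were not called. HNRNPA2B1 was at 1515, 1803 and 1912 TPM in sgEPCR DMSO and 1457, 1348 and 1463 TPM in sgEPCR UM171 (log2 fold change -0.45, standard error 0.18, adjusted p = 0.103), with every UM171 library below every DMSO library. HNRNPL was at 196, 470.1 and 448 TPM in sgEPCR DMSO and 359, 156 and 359.7 TPM in sgEPCR UM171 (log2 fold change -0.53, standard error 0.19, adjusted p = 0.0768), and BCYRN1 at 152, 210.1 and 224 TPM in sgEPCR DMSO and 312, 173 and 342 TPM in sgEPCR UM171 (log2 fold change 0.18, standard error 0.21, adjusted p = 0.541), both with overlap. PSMB2 (-0.30, adjusted p = 0.16) and ASF1A (-0.28, adjusted p = 0.0768) were not called either, while without the 2 mitochondria-rich libraries PSMB2, ASF1A, HNRNPA2B1 and HNRNPL were all lowered (-0.34, -0.37, -0.49 and -0.53), as were 38.0% of all genes. HNRNPL was also lowered without sgEPCR DMSO library 1 (adjusted p = 0.0355), and HNRNPA2B1 and PSMB2 without sgEPCR UM171 library 2 (0.0325 and 0.0362). Over the lists, 15 of 30 splicing genes and 11 of 40 proteasome genes were lowered, where 16.2% of all genes were.

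Members of the lipid mediator and platelet lists were raised. PLA2G4A was at 6.67, 15.1 and 15.4 TPM in sgEPCR DMSO and 34.2, 17.5 and 31.9 TPM in sgEPCR UM171 (log2 fold change 1.000, standard error 0.09, adjusted p = 0.000724), with 8 of 11 eicosanoid genes tested raised and 1 lowered. MMRN1 was at 0.2, 0.25 and 0.34 TPM in sgEPCR DMSO and 1.2, 0.92 and 1.13 TPM in sgEPCR UM171 (log2 fold change 1.98, standard error 0.35, adjusted p = 0.00687), and GNG11 at 2.28, 4.05 and 4.05 TPM in sgEPCR DMSO and 13.9, 8.7 and 13.5 TPM in sgEPCR UM171 (log2 fold change 1.57, standard error 0.15, adjusted p = 0.000849), where all 5 platelet markers tested were raised and the list summed to 3 to 6.01 TPM in sgEPCR DMSO and 26.2 to 55.9 TPM in sgEPCR UM171. The part of platelet-lineage transcripts in these members was not tested. LIN28B was lowered, from 9.31, 16.5 and 17.5 to 11.5, 7.45 and 10.7 TPM with overlap (log2 fold change -0.76, standard error 0.15, adjusted p = 0.0105), and in control cells it had been at 45.4, 42.7 and 39.5 TPM at 24 h. With limma on log2(TPM + 1) the calls on PLA2G4A, GNG11 and LIN28B were lost (adjusted p = 0.213, 0.057 and 0.593). Among the other raised members, MLLT11 was at 0.18, 0.33 and 0.3 TPM in sgEPCR DMSO and 2.9, 1.85 and 2.71 TPM in sgEPCR UM171 (log2 fold change 2.98, standard error 0.20, adjusted p = 0.000281), GCNT2 at 0.45, 1.03 and 1.11 TPM in sgEPCR DMSO and 6.55, 3.81 and 6.34 TPM in sgEPCR UM171 (log2 fold change 2.56, standard error 0.14, adjusted p = 0.000157) and AK8 at 0.36, 0.45 and 0.35 TPM in sgEPCR DMSO and 4.87, 1.83 and 4.06 TPM in sgEPCR UM171 (log2 fold change 2.73, standard error 0.33, adjusted p = 0.0018), named after their values were seen. In the lists with no member or few, 16 of 39 interferon-stimulated genes tested were raised and 3 lowered, 5 of 10 monocyte markers raised and 2 lowered, 2 of 3 erythroid and 2 of 2 epithelial and fibroblast markers raised, 1 of 2 T and B cell markers raised and 1 lowered, 1 of 6 stem cell genes raised and 2 lowered, and 3 of 7 acute myeloid leukemia markers raised and 2 lowered, where 20.8% of all genes were raised and 16.2% lowered. All 8 mast cell markers tested were raised, and that list summed to 23.1 to 62.7 TPM in sgEPCR DMSO and 117 to 257 in sgEPCR UM171. The part of that list in the members' values was not tested.

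Vehicle levels of the members are set side by side for both kinds of cells, without a test. In sgEPCR DMSO the 10 lowered members were at 1.57 to 2.78 times control DMSO (median 2.2), the 28 raised members at 0.23 to 2.81 times (median 1.15), and all genes tested at a median of 0.787. SOD1 was at 288 ± 81.4 TPM in sgEPCR DMSO against 132 ± 8.84 in control DMSO and 339 ± 11.6 in control UM171 at 24 h (SD, n = 3). GCSH was at 44.4 ± 10.8 against 18.6 ± 0.462 and 47 ± 1.45 TPM, and HNRNPA2B1 at 1743 ± 205 against 703 ± 35.4 and 1835 ± 136 TPM, so their mean in sgEPCR cells given vehicle was nearer to the control UM171 level at 24 h than to control DMSO. PIR was nearer to control DMSO, at 20.4 ± 7.67 against 7.26 ± 0.622 and 51.6 ± 1.8 TPM. The vehicles differ both in PROCR targeting and in labelled time, 24 h against 72 h, which cannot be told apart, and the sgEPCR vehicle libraries are shared by this ratio and the fold change in sgEPCR cells, so a relation between ratio and fold change is partly built in.

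**Figure D5:**
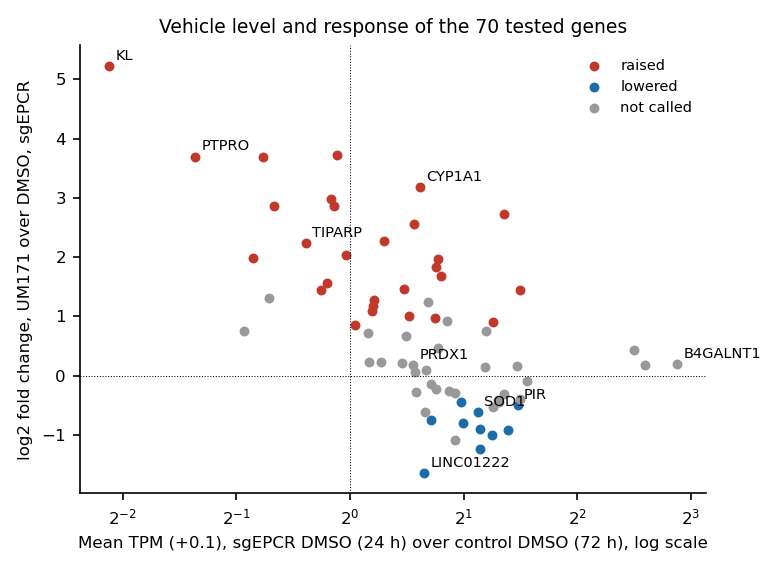
log2 fold change of UM171 over DMSO in sgEPCR cells (edgeR) against the ratio of mean TPM (0.1 added) in sgEPCR DMSO (24 h) to control DMSO (72 h), on a log scale, for the 70 members tested. Both axes share the sgEPCR DMSO libraries. The 10 lowered members (blue) lie right of a ratio of 1 and the 28 raised members (red) on both sides of it.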

How the data were processed

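PolyA RNA-seq was made of 21 libraries in 7 groups, taken from the labels. According to the submitters' processing notes the tools were CASAVA 1.8.2, Trimmomatic 0.35, STAR 2.5.1b and RSEM 1.2.28, with GRCh38. The authors deposited expected counts, TPM and an effective length per gene and library. The study's own analysis of the time course is described with another quantifier, not used here. Entries on the Y copy of the pseudoautosomal region were left out. A TPM is a share of a library, so a library rich in mitochondrial counts leaves a smaller share to other genes. In sgEPCR DMSO library 1 mitochondrial counts were 35.9%, against 8.09% and 8.74% in libraries 2 and 3. PRDX1 was at 186.4 TPM there against 490.15 and 541.52, and AIFM2 at 3.1 TPM against 10.39 and 9.33. The cause of the lower levels in sgEPCR DMSO library 1 and sgEPCR UM171 library 2 was not tested. Not every gene was lower in those 2 libraries. HMGN5 was at 58.94 TPM in sgEPCR DMSO library 1 against 32.16 and 33.54 in libraries 2 and 3. In sgEPCR UM171 library 2 it was at 67.69 TPM against 32.55 and 31.5 in libraries 1 and 3.

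For the sgEPCR libraries, expected counts were rounded and genes with low counts removed (filterByExpr), scaled by TMM, and tested by quasi-likelihood in edgeR 4.0.16 (limma 3.58.1, R 4.3.3) with Benjamini-Hochberg adjustment. Alternatives were upper-quartile and total-count scaling, DESeq2 1.42.0, limma on log2(TPM + 1) and log2(TPM + 0.1), other filters, GC and replicate terms, all 12 libraries of 24 h and DMSO, and left-out libraries. The code was checked on simulated data. Total counts of 24.3 to 51.5 M set the precision. Descriptions used Python 3.11.15, annotation GENCODE 44, and promoter windows of 250 bases.

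Named were the 8 members with the highest ratio, the 5 most abundant, those in a gene list, the 5 largest rises and falls called in sgEPCR cells, and genes nearest each limit, along with PROCR. The members and the 17 lists were chosen with earlier results of these data known. Other genes are said to be named after their values were seen.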

Additional observations from a re-analysis of the deposited data

Results flagged for a closer look

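In 4 members every sgEPCR UM171 library lay below every sgEPCR DMSO library, while in control cells every 24 h library lay above every DMSO library, a direction that the choice of members fixes. In 28 members every sgEPCR UM171 library lay above every sgEPCR DMSO library. These are not the 28 members called raised, of which 23 were free of overlap. The share of all genes without overlap was not counted, so neither the 4 nor the 28 are a result about the members as a set. The ratio of mean TPM in sgEPCR UM171 to sgEPCR DMSO was 0.400 for LINC01222, 0.525 for CENATAC-DT, 0.589 for GCSH and 0.816 for HNRNPA2B1. The difference between control and sgEPCR cells was not tested. For all 4 the sgEPCR DMSO mean was above control DMSO, at 2.97 against 1.85 TPM for LINC01222, 2.99 against 1.08 TPM for CENATAC-DT, 44.4 against 18.6 TPM for GCSH and 1743 against 703 TPM for HNRNPA2B1. The labelled vehicle times differ, 24 h against 72 h, so PROCR targeting and time cannot be told apart.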

How the results depend on the processing

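At an adjusted p under 0.05 the sgEPCR calls on members ran over the alternatives from 14 to 39 raised (28 as reported) and from 0 to 22 lowered (10 as reported), and the share of all genes called moved with them. The lowered count was 4 under total-count scaling (5.1% of all genes), 16 with a GC offset (25.3%), 18 in a fit of 12 libraries (25.1%), and 22 without the 2 mitochondria-rich libraries (38.0%), where 39 were raised (38.2%). With single libraries left out, 25 to 33 were raised and 3 to 12 lowered. With limma on log2(TPM + 1) or log2(TPM + 0.1) 14 were raised (5.72% and 6% of all genes) and 0 lowered (0.368% and 0.361%, with 2 and 1 members lowered at an unadjusted p under 0.05), where DESeq2 called 13 lowered. At an adjusted p under 0.0001 and over 2-fold 1 was raised, KL, and 0 lowered (edgeR, 14 lowered at an unadjusted p under 0.05). Replicate numbers did not pair the sgEPCR libraries (deviations of equal numbers correlated at -0.84, -0.85 and 0.75). Deviations of sgEPCR DMSO library 1 correlated with those of sgEPCR UM171 library 2 at 0.87. Those of DMSO libraries 2 and 3 correlated with those of UM171 libraries 1 and 3 at 0.75 to 0.81. A replicate block, which gave 24 raised (9.8% of all genes) and 2 lowered (4.95%), pairs only equal numbers and so does not follow these matches. A fit that follows them was not run. PSMB2 reversed, to 0.0157 and 0.0159, under the limma settings. The causes were not tested. The members' median log2 fold change was 0.41 to 0.83 over the alternatives. Of the single-gene values under alternatives, 378 kept direction and side of the threshold, 46 lost the call and 29 gained one. Adding at least 10 counts in each 24 h library to the rule, or leaving out genes with near-identical copies (27 raised, 9 lowered of 63), was chosen after seeing the data, as were the counts by 6 h class under other tools. The number of members was 62 with 1 TPM added, 89 with TMM-scaled counts per kilobase (67 of the 85 among them), 83 with TPM over the upper quartile, 81 with the median of 3 libraries and 77 to 91 with single libraries left out. Depth limits the 14 members with fewer than 10 counts in a 24 h library.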
